A study of Saccharomyces cerevisiae with 2 samples.

Results

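The genes described here are the 40 nuclear genes of *S. cerevisiae* that encode the enzymes and regulators of defence against oxidants: superoxide dismutases, catalases, peroxidases, thioredoxins, glutaredoxins, the enzymes that make, reduce and use glutathione, methionine sulfoxide reductases, the flavohemoglobin Yhb1, and the transcription factors Yap1 and Skn7. The list was given as names, drawn up when earlier results of these data were known, and no value enters its rule. All 40 were found among the 6716 named genes of the deposited tables. Polyadenylated RNA of a Chinese rice wine strain and of the laboratory strain BY4741 was sequenced, with 1 library per strain. The paper calls the rice wine strain YHJ7 and describes it as a haploid obtained by sporulation from a Huangjiu (Chinese rice wine) isolate, whereas the sample label writes YHJ8 and gives it as wild type from Chinese rice wine. YHJ7 is used here. BY4741 is labelled as a laboratory strain, MATa with his△1, leu2△0, lys2△0 and ura3△0. Both strains were inoculated at an OD600 of 0.05 in YPD (per the labels, 1 g/L yeast extract, 2 g/L peptone and 2 g/L glucose) and harvested in early stationary phase, and each library pooled 2 biological replicates. The spread between cultures was therefore not measured, and no difference below has a replicate check or a p-value.

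Superoxide dismutases turn superoxide into hydrogen peroxide, which catalases and peroxidases then remove. Peroxiredoxins draw their electrons mainly from thioredoxins, glutathione-dependent enzymes draw theirs from glutathione, and both pools are kept reduced with NADPH by thioredoxin reductase and glutathione reductase. In yeast the transcription factor Yap1 is activated by oxidation and switches on many of these genes, often together with Skn7, whereas Msn2 and Msn4 act through a separate general stress response when glucose runs out.

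Promoter sequence is shown for *GTO1* and *CTT1* because they were the members furthest above and below BY4741 in the YHJ7 library. Both come from the RefSeq R64 assembly of S288c, the build to which the reads were mapped (sacCer3), and not from YHJ7. Each runs 5′ to 3′ on the strand of its gene, from 250 bases before the start codon to 50 bases from it on. *GTO1* (YGR154C) occupies chrVII:796798-797868 on the minus strand, its window is chrVII:797819-798118, and *CTT1* (YGR088W) occupies chrVII:654634-656322 on the plus strand, its window is chrVII:654384-654683. Capitals mark a Yap1 response element (TTACTAA) or a stress response element (AGGGG), searched on both strands. The 2 motifs could share 1 base and do not in either window.
GTO1: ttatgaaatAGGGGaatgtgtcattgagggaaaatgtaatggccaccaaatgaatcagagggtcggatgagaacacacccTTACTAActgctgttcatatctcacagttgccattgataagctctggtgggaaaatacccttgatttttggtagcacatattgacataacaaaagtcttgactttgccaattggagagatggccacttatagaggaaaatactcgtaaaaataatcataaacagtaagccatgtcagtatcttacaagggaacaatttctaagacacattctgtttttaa
CTT1: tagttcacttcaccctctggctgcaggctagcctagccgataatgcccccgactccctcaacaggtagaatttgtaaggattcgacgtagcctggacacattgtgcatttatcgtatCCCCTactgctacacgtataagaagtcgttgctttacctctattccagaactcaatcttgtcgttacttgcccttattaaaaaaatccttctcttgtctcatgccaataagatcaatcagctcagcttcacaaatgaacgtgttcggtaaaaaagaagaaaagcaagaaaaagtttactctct
The *GTO1* window held both motifs, TTACTAA at position -170 and AGGGG at -241, counted from the A of the start codon as 0. The *CTT1* window held 1 stress response element, at -133 on the other strand, and no TTACTAA.

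The Yap1 element was present in the windows of 10 of the 40 genes (25%), against 7.45% of 6001 windows of protein-coding genes. The 10 were *SOD1*, *CCS1*, *TRX2*, *GRX2*, *GRX8*, *GLR1*, *GTT1*, *GTT2*, *GTO1* and *SKN7*, and in *GRX8* it lay inside the coding sequence. Of the 10, 8 were lower in YHJ7, where 28 of all 40 members (70%) were lower, and *GTO1* and *GLR1* were higher. The differences of *GRX8* and *GLR1* were within counting error. AGGGG was present in 17 of the 40 (42.5%), against 21.6% of all windows, and of the 17, 10 were lower in YHJ7 and 7 higher. Some of the stretches that hold TTACTAA are shown with 10 bases on each side, for *GTO1* and *GLR1*, the 2 that were higher, and for *GTT2* and *TRX2* among the 8 that were lower.
GTO1: gaacacacccTTACTAActgctgttca
GTT2: ctttcactgcTTACTAAttcattcgtt
TRX2, distal element: gtttatactcTTAGTAAaggatgctcc
TRX2, proximal element: ggctcttttcTTACTAAgcgcgttcag
GLR1: ttgacgtcacTTAGTAAgcacgaccct
TTAGTAA is the same element read on the other strand. Among these 4 genes the log2(FPKM + 1) difference, YHJ7 minus BY4741, was 4.23 for *GTO1*, -1.09 for *GTT2*, -0.59 for *TRX2* and 0.04 for *GLR1*. The last became negative when the libraries were put on an equal total of FPKM (equal-total scaling) and when the median gene was set to 0. A match is a string of letters in the reference, and neither binding nor an effect of it was measured.

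Levels are given in FPKM, the authors' estimate of fragments per kilobase of a gene's exons, relative to all mapped fragments. The libraries held 10219631 fragments on named genes in BY4741 and 8167485 in YHJ7. The 40 genes took 1.80% and 1.30% of these, with 91 to 29817 fragments per gene in BY4741 and 34 to 18218 in YHJ7. The intervals given with ratios are exact 95% binomial intervals of the fragment counts and cover counting error only. The strain of each table was taken from its column headings, which in each case name the opposite strain to the sample that carries the table. *LEU2* and *URA3*, which the label gives as deleted in BY4741, had 0 fragments in the columns headed as BY4741 and 473 and 768 in the other. *MET17*, whose deletion the label does not list, had 0 and 240. *LYS2*, which the label lists as deleted, had 1348 fragments in BY4741, and *HIS3* had 548. The *LYS2* level was 26.1 FPKM in BY4741 and 25.3 in YHJ7, so the reads do not bear out the listed deletion of *LYS2*. Following the attachment of the tables would reverse every direction below.

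The antioxidant genes were, on balance, lower in YHJ7. Of the 40, 28 were lower (70%) and 12 higher, against 49.2% lower and 49.6% higher among all 6716 genes, and their median log2(FPKM + 1) difference was -0.25 against 0 for all genes. At least 2-fold lower were 8 members (20%), namely *CTT1*, *SRX1*, *MXR1*, *TRR2*, *GPX2*, *GRX3*, *GTT2* and *GRX4*. Over all genes 9.84% were at least 2-fold lower, and among the 5671 genes averaging 10 FPKM or more in the 2 libraries, a minimum that all 40 members passed, 6.82% were. At least 2-fold higher were 2 members (5%), *GTO1* and *DOT5*, against 12.4% of all genes and 13.7% of those averaging 10 FPKM or more. At 4-fold, *GTO1* alone was higher and no member was lower, against 2.74% and 3.75% of all genes. The remaining 30 members differed by less than 2-fold. The threshold passed through a run of close values, from *TRR2* at -1.13 and *GRX4* at -1.06 just past it to *AHP1* at -0.99, *GSH1* at -0.91 and *YHB1* at -0.90 just short of it. By counting error alone, the ratio was below 1 for 27 members and above 1 for 10, and the interval held 1 for *GRX7*, *GRX8* and *GLR1*. The whole interval lay past 2-fold for *GTO1*, *CTT1* and *MXR1*, with the largest step in the estimated counts taken as 1 fragment. With the smallest step it did so for 7 members, *GRX3*, *GTT2*, *SRX1* and *TRR2* added. These interval counts were not computed over all genes, so they do not set the members apart from other genes. With equal-total scaling, the median of all genes shifted to -0.19 and that of the members to -0.46, and 6 members listed as higher, *SOD2*, *TSA1*, *GRX7*, *GSH2*, *GLR1* and *YAP1*, became lower, while *AHP1*, *GSH1* and *YHB1* passed 2-fold. With a pseudocount of 10 in place of 1, *GPX2*, *GRX3*, *GRX4* and *GTT2* were under 2-fold. In a bulk library, fewer cells with a transcript and less of it per cell cannot be told apart. Reads of both strains were mapped to the genome of S288c. Per the paper, BY4741 is isogenic to S288c, whereas YHJ7 differs from it at many positions. Whether reads of YHJ7 were lost where the sequences differ was not tested.

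**Figure D1:**
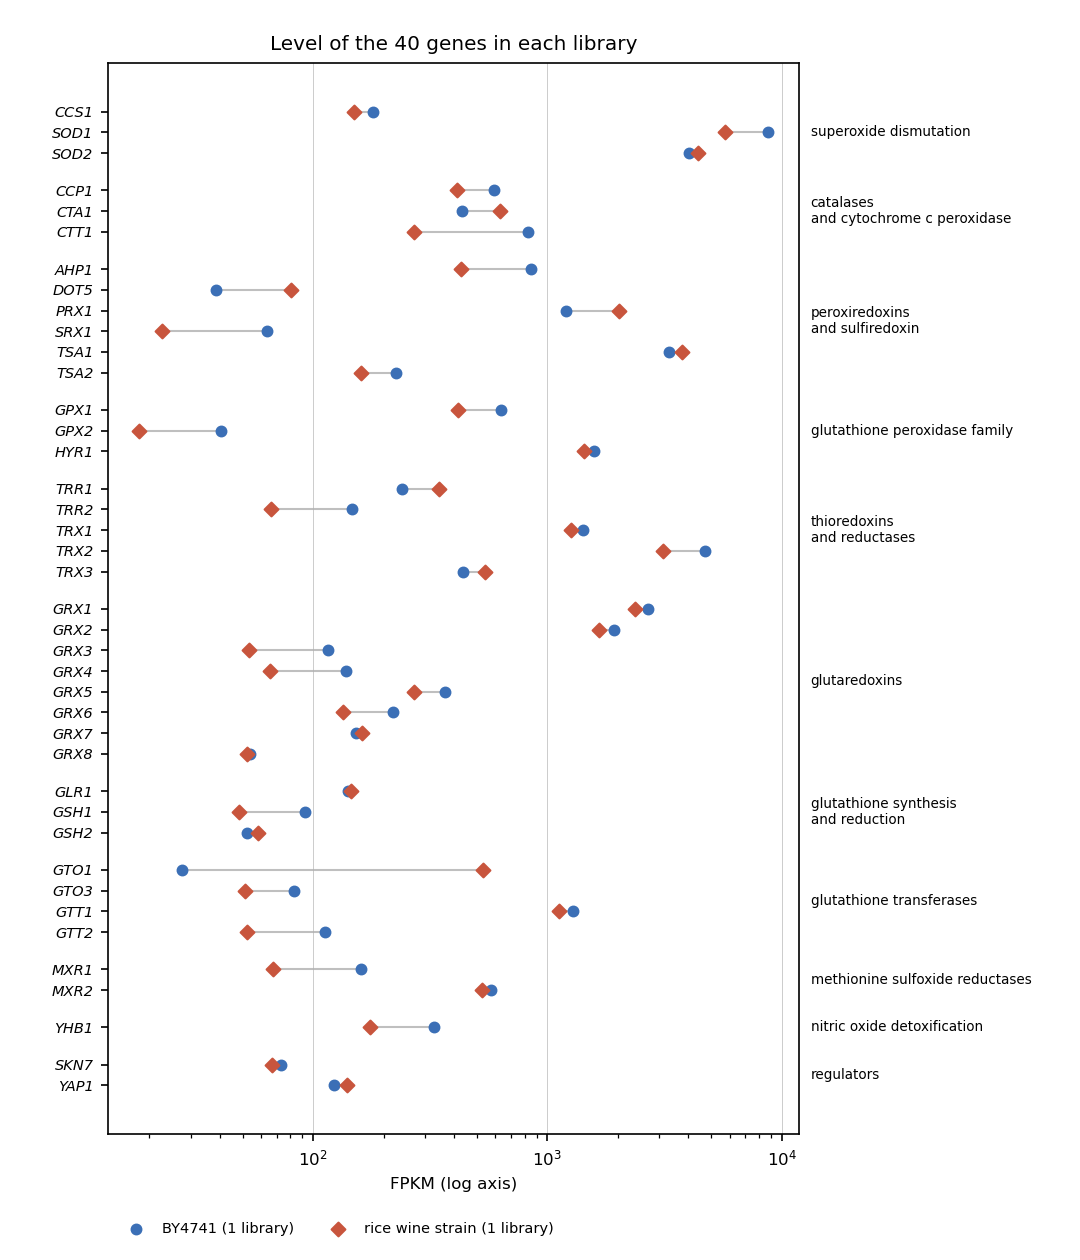
FPKM (log axis) of each of the 40 genes in the BY4741 library (circles) and the YHJ7 library (diamonds), grouped by function. Each point is 1 library, so there is no error bar. *GTO1* has by far the longest line, from 27.5 to 533 FPKM, and most other diamonds lie to the left of their circle.

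The order of the members by level was largely shared between the strains. Across the 40 genes Spearman's ρ of the FPKM values was 0.88, and 0.95 without *GTO1*. Both are descriptions across genes of the same 2 libraries. *SOD1* was the most abundant member in both, and the 5 most abundant were the same 5 genes, *SOD1*, *SOD2*, *TRX2*, *TSA1* and *GRX1*, which together made up 61.0% of the summed FPKM of the 40 in BY4741 and 58.7% in YHJ7. *TRX2* ranked 2 in BY4741 and 4 in YHJ7. *GTO1* was the least abundant of the 40 in BY4741 and ranked 13 in YHJ7. The summed FPKM was 38367 in BY4741 and 32974 in YHJ7.

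*GTO1* had by a wide margin the largest difference of the set. It encodes an omega-class glutathione transferase of the peroxisome, and it had 27.5 FPKM in BY4741 and 533 in YHJ7 (310 and 3822 fragments). It was 19.4-fold higher in YHJ7 (95% interval 17.3 to 21.8). Of the 6716 genes, 25 including *GTO1* had a log2(FPKM + 1) difference at least this high. The genes next to it on either side on chromosome VII were also higher in YHJ7, by less. *CYS4* (chrVII:798543-800066), which encodes cystathionine β-synthase and lies across the intergenic region, had 201 FPKM in BY4741 and 803 in YHJ7. YGR153W, on the other side at chrVII:796092-796745, had 10.9 and 51.4 FPKM. It ends close to *GTO1*, whose locus begins at 796798, and strand-specific counting was not stated. Whether reads of *GTO1* were counted for YGR153W was not tested. Further out the directions were mixed, with log2(FPKM + 1) differences of -0.56 for *PTI1* and 1.46 for *CHO2* on the side of *CYS4*. On the side of YGR153W, *RSR1* and YGR151C are listed at the same locus and had differences of 1.79 and -1.22, and their reads cannot be told apart with certainty.

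The other glutathione transferases did not share the direction of *GTO1*. *GTO3* encodes a cytosolic omega-class enzyme, and it had 82.5 FPKM in BY4741 and 51.0 in YHJ7, 1.62-fold lower in YHJ7 (95% interval 1.44 to 1.83). *GTT1* encodes an enzyme associated with the endoplasmic reticulum and was the most abundant of the 4 in both libraries, at 1282 FPKM in BY4741 and 1123 in YHJ7, 1.14-fold lower in YHJ7 (95% interval 1.10 to 1.18). *GTT2* had 112 FPKM in BY4741 and 52.1 in YHJ7, 2.15-fold lower in YHJ7 (95% interval 1.85 to 2.52). The order of *GTO1* and *GTO3* turned over between the strains, since the *GTO1* level was 0.333 times that of *GTO3* in BY4741 (95% counting interval 0.293 to 0.379) and 10.5 times in YHJ7 (9.41 to 11.6). In the R64 reference their proteins are 50.4% identical over 349 aligned residues.

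Glutathione itself is made from glutamate, cysteine and glycine by Gsh1 and then Gsh2, and Glr1 reduces its disulfide. *GSH1*, which encodes the rate-limiting ligase, had 91.9 FPKM in BY4741 and 48.5 in YHJ7, 1.90-fold lower in YHJ7 (95% interval 1.74 to 2.06). *GSH2* had 52.2 FPKM in BY4741 and 58.3 in YHJ7 and *GLR1* 141 FPKM in BY4741 and 145 in YHJ7. *GSH2* and *GLR1* differed by at most 1.12-fold, and both went from higher to lower in YHJ7 with equal-total scaling. In the authors' table of comparisons, where *GLR1* shares a locus with *NOG1* and *SSU1*, its difference was 0.65. Among these 3 genes only the ligase at the entry of the pathway was near the 2-fold threshold.

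Of the catalases, the cytosolic form was lower and the peroxisomal form higher in YHJ7. *CTT1* encodes the cytosolic catalase T, a classical target of the general stress response, and it had 825 FPKM in BY4741 and 269 in YHJ7 (15916 and 3295 fragments). It was 3.07-fold lower in YHJ7 (95% interval 2.96 to 3.19), and 3.12% of the genes averaging 10 FPKM or more were at least as far down. *CTA1* encodes catalase A of peroxisomes and mitochondria, and it had 432 FPKM in BY4741 and 627 in YHJ7, 1.45-fold higher in YHJ7 (95% interval 1.40 to 1.499). Thus *CTT1* was 1.91 times as abundant as *CTA1* in BY4741 (95% counting interval 1.86 to 1.96) but 0.428 times in YHJ7 (0.411 to 0.446). *CCP1*, which encodes the cytochrome c peroxidase of the mitochondrial intermembrane space, had 594 FPKM in BY4741 and 412 in YHJ7, 1.44-fold lower in YHJ7 (95% interval 1.38 to 1.51).

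The superoxide dismutases moved closer together. *SOD1*, for the copper- and zinc-containing enzyme of the cytosol, had 8725 FPKM in BY4741 and 5720.3 in YHJ7, 1.53-fold lower in YHJ7 (95% interval 1.49 to 1.56). *CCS1*, for the chaperone that loads copper into Sod1, had 181 FPKM in BY4741 and 149 in YHJ7, 1.21-fold lower in YHJ7 (95% interval 1.10 to 1.33). *SOD2*, for the manganese enzyme of the mitochondrial matrix, had 4014 FPKM in BY4741 and 4414 in YHJ7, 1.10-fold higher in YHJ7 (95% interval 1.08 to 1.12), and it was lower in YHJ7 with equal-total scaling. *SOD1* thus exceeded *SOD2* by 2.17-fold in BY4741 and by 1.296-fold in YHJ7.

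**Figure D2:**
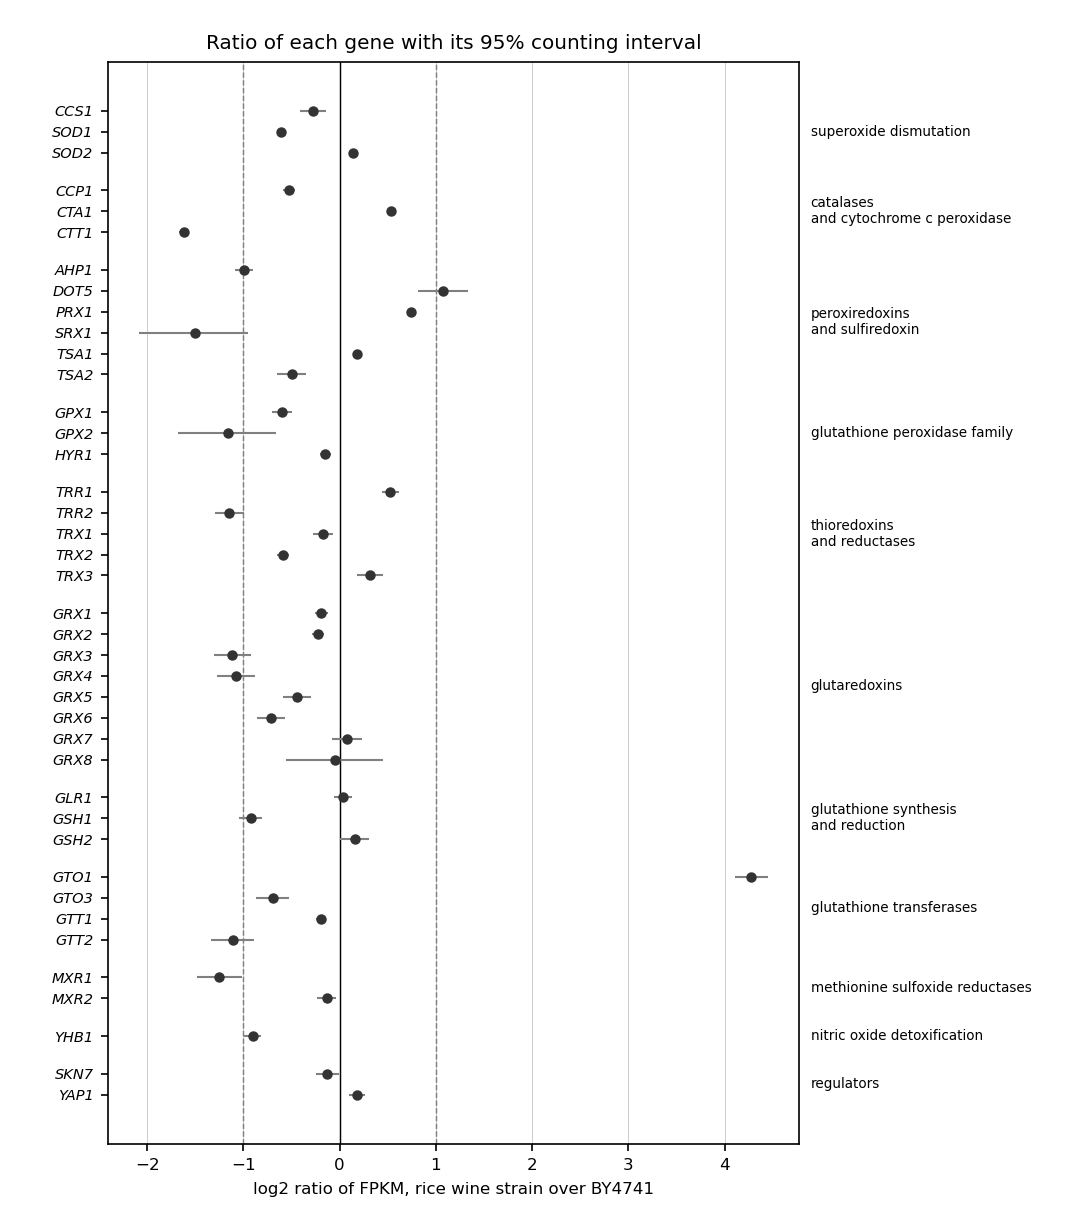
log2 ratio of FPKM, YHJ7 over BY4741, of each of the 40 genes, with the 95% counting interval as a bar. Dashed lines mark 2-fold in each direction. *GTO1* stands alone on the right, *CTT1* is furthest left, and *SRX1* and *GPX2*, with 34 and 43 fragments in YHJ7, have the widest bars among the genes past a dashed line. Equal-total scaling would add -0.21 to every point, which takes *SOD2*, *TSA1*, *GRX7*, *GSH2*, *GLR1* and *YAP1* across 0.

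The peroxiredoxins went in both directions. *TSA1*, for the major cytosolic peroxiredoxin, had 3307 FPKM in BY4741 and 3741 in YHJ7, a ratio of 1.13 that fell below 1 with equal-total scaling. Its paralogue *TSA2* had 226 FPKM in BY4741 and 160.3 in YHJ7, 1.41-fold lower in YHJ7 (95% interval 1.27 to 1.57). In the reference their proteins are 85.7% identical and their aligned codons 73.3% identical in bases. Whether reads were assigned to the wrong copy was not tested. *AHP1*, for an alkyl hydroperoxide reductase, had 855 FPKM in BY4741 and 429 in YHJ7, 1.99-fold lower in YHJ7 (95% interval 1.86 to 2.13). *PRX1*, for the mitochondrial peroxiredoxin, had 1204 FPKM in BY4741 and 2019.8 in YHJ7, 1.68-fold higher in YHJ7 (95% interval 1.63 to 1.73). *DOT5*, for a nuclear peroxiredoxin, was the only member besides *GTO1* to reach a 2-fold higher level. It had 38.3 FPKM in BY4741 and 80.6 in YHJ7, 2.10-fold higher in YHJ7 (95% interval 1.76 to 2.52), and it was under 2-fold with a pseudocount of 10, with either rescaling of the libraries and with the FPKM values of the authors' table of comparisons.

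*SRX1* encodes sulfiredoxin, which repairs peroxiredoxins that hydrogen peroxide has over-oxidised. It had 63.7 FPKM in BY4741 and 22.6 in YHJ7, 2.82-fold lower in YHJ7 (95% interval 1.94 to 4.23). These levels rest on 151 and 34 fragments. All 3 genes of the glutathione peroxidase family were lower in YHJ7. *HYR1* (also called *GPX3*), whose product senses peroxide and oxidises Yap1, had 1588 FPKM in BY4741 and 1433 in YHJ7, 1.11-fold lower in YHJ7 (95% interval 1.06 to 1.16). *GPX1* had 631 FPKM in BY4741 and 417 in YHJ7, 1.51-fold lower in YHJ7 (95% interval 1.41 to 1.63). *GPX2* was the least abundant of the 3 in both libraries, at 40.5 FPKM in BY4741 and 18.1 in YHJ7, 2.23-fold lower in YHJ7 (95% interval 1.58 to 3.21).

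Thioredoxins reduce peroxiredoxins, methionine sulfoxide reductases and ribonucleotide reductase, and thioredoxin reductases recharge them. The cytosolic thioredoxin genes *TRX1* and *TRX2* had 1417 FPKM in BY4741 and 1258 in YHJ7 and 4687 FPKM in BY4741 and 3114 in YHJ7, respectively. *TRX2*, a well-known Yap1 target, was 1.505-fold lower in YHJ7 (95% interval 1.44 to 1.57), and *TRX1* 1.13-fold lower in YHJ7 (95% interval 1.05 to 1.21). The mitochondrial thioredoxin gene *TRX3* went the other way, at 434 FPKM in BY4741 and 540.2 in YHJ7, 1.24-fold higher in YHJ7 (95% interval 1.13 to 1.37). The reductases separated by compartment in the opposite sense. *TRR1*, for the cytosolic enzyme, had 239.8 FPKM in BY4741 and 346 in YHJ7, 1.44-fold higher in YHJ7 (95% interval 1.36 to 1.53). *TRR2*, for the mitochondrial enzyme, had 147 FPKM in BY4741 and 66.4 in YHJ7, 2.21-fold lower in YHJ7 (95% interval 1.99 to 2.46). The level of *TRR1* was 1.63 times that of *TRR2* in BY4741 and 5.21 times in YHJ7, with 95% counting intervals of 1.53 to 1.74 and 4.71 to 5.77. In the reference their proteins are 85.6% identical and their aligned codons 69.4% identical in bases, and read assignment between them was not tested.

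Of the 8 glutaredoxin genes, 7 had a lower value in YHJ7, *GRX8* only within counting error. *GRX7* was 1.06-fold higher, also within counting error, and it was lower with equal-total scaling. *GRX3* and *GRX4* encode paralogous monothiol glutaredoxins that handle iron-sulfur clusters and regulate iron uptake genes, and they had the largest and nearly the same differences. *GRX3* had 115 FPKM in BY4741 and 53.4 in YHJ7, 2.16-fold lower in YHJ7 (95% interval 1.90 to 2.47). *GRX4* had 138 FPKM in BY4741 and 65.5 in YHJ7, 2.11-fold lower in YHJ7 (95% interval 1.84 to 2.41). The ratio of *GRX4* to *GRX3* was 1.19 in BY4741 and 1.23 in YHJ7, each within the interval of the other. *GRX1* and *GRX2*, for the dithiol glutaredoxins, were far more abundant and differed less, at 2690.1 FPKM in BY4741 and 2361 in YHJ7 and 1932 FPKM in BY4741 and 1653 in YHJ7, respectively, and their ratio was also nearly the same in both strains (1.39 and 1.43). *GRX5*, for the mitochondrial glutaredoxin of iron-sulfur cluster assembly, had 367 FPKM in BY4741 and 269 in YHJ7. *GRX6* and *GRX7* encode enzymes of the secretory pathway, and *GRX6* was the higher of the pair in BY4741, at 219.6 against 153 FPKM, and the lower in YHJ7, at 134 against 161 FPKM. *GRX8* had 54.0 FPKM in BY4741 and 52.2 in YHJ7 and too few fragments (91 and 56) to give a direction. The loci of *GRX2* and *GRX6* in the deposited tables overlap those of *EMI1* and of YDL009C and YDL011C, and since strand-specific counting was not stated, the reads of these genes cannot be told apart with certainty.

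**Figure D3:**
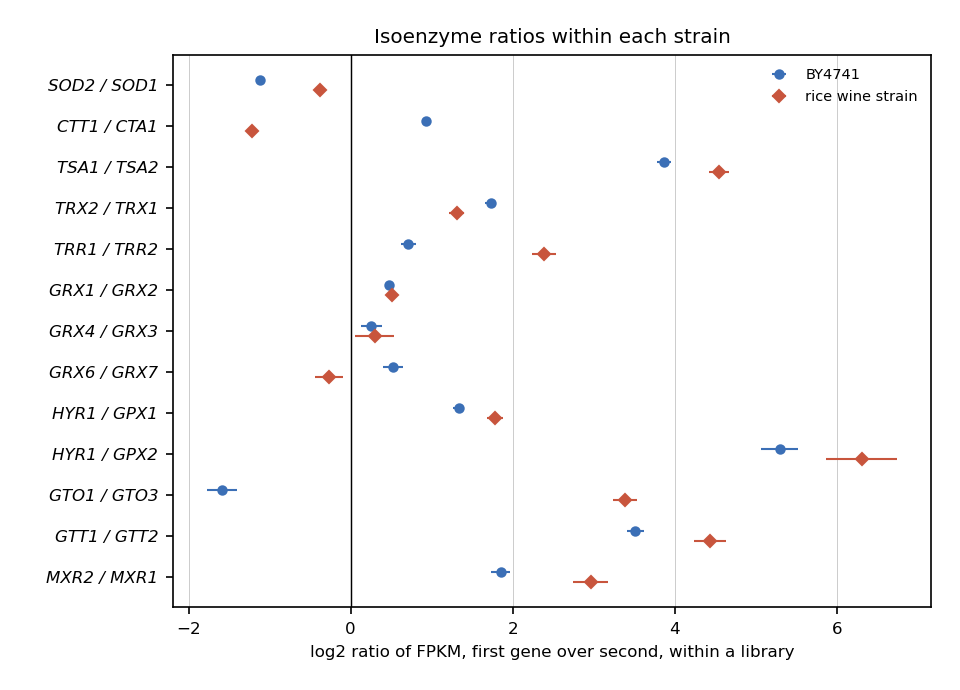
log2 ratio of the FPKM of related genes within each library, BY4741 (circles) and YHJ7 (diamonds), with 95% counting intervals as bars. Ratios right of 0 mean that the gene named first had the higher level. The *GTO1*, *CTT1* and *GRX6* pairs lie on opposite sides of 0 in the 2 strains, whereas the *GRX1* and *GRX4* pairs hardly differ.

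Methionine sulfoxide reductases reverse the oxidation of methionine in proteins, Mxr1 and Mxr2 acting on opposite stereoisomers. *MXR1* had 159.7 FPKM in BY4741 and 67.2 in YHJ7, 2.38-fold lower in YHJ7 (95% interval 2.03 to 2.79). *MXR2*, for the mitochondrial enzyme, had 575 FPKM in BY4741 and 525 in YHJ7, 1.10-fold lower in YHJ7 (95% interval 1.024 to 1.17). *YHB1*, for the flavohemoglobin that removes nitric oxide, had 329 FPKM in BY4741 and 176 in YHJ7, 1.87-fold lower in YHJ7 (95% interval 1.76 to 1.99). The genes for the regulators differed little. *YAP1* had 123 FPKM in BY4741 and 139.9 in YHJ7, a ratio of 1.13 that fell below 1 with equal-total scaling, and *SKN7* had 72.9 FPKM in BY4741 and 66.7 in YHJ7, a ratio of 0.915. These are transcript levels, and Yap1 is regulated mainly by its location in the cell, which was not measured.

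By compartment, 7 members with a mitochondrial product, *SOD2*, *CCP1*, *PRX1*, *TRX3*, *TRR2*, *GRX5* and *MXR2*, had a median log2(FPKM + 1) difference of -0.13, and of these 3 were higher and 4 lower. With *CTA1*, whose product is also found in peroxisomes, the median of the 8 was 0.00196, and 4 were higher and 4 lower. The cytosolic genes set against them, *SOD1*, *CTT1*, *TSA1*, *TRX1*, *TRX2*, *TRR1* and *MXR1*, had a median of -0.59, and of these 2 were higher and 5 lower. Both sets were chosen, and their medians depend on the choice. The cytosolic set is not all cytosolic members, since *AHP1*, *GRX3*, *GRX4* and others were left out. The mitochondrial set was likewise not drawn up to hold every member with a product there. The summed FPKM of the mitochondrial genes was 7336 in BY4741 and 8246 in YHJ7, and that of the cytosolic genes 19359 and 14516. The YHJ7 sum was thus 1.12 and 0.75 times the BY4741 sum. Over all genes it was 1.16 times, so relative to the total the mitochondrial sum was not higher in YHJ7. With equal-total scaling, *SOD2* and *TSA1* in these counts change from higher to lower. The ranges of the groups overlap, from -1.13 to 0.75 and from -1.62 to 0.53.

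**Figure D4:**
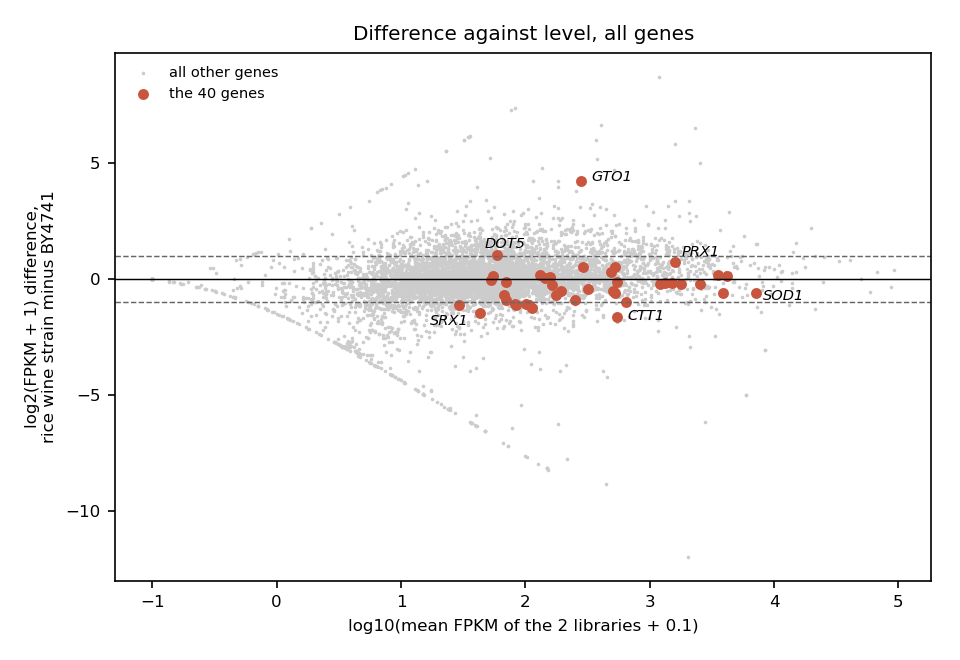
log2(FPKM + 1) difference, YHJ7 minus BY4741, against log10 of the mean FPKM of the 2 libraries plus 0.1, for all 6716 genes (grey) and the 40 antioxidant genes (red). Dashed lines mark 2-fold. Of the 40 genes, 30 lie between the dashed lines, 8 below and 2 above, with *GTO1* at 4.23.

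A second list of 39 genes around the same pathways, which supply NADPH, move or break down glutathione, use it, regulate the response or exchange electrons with the enzymes above, had more members higher than lower at 2-fold. At least 2-fold higher in YHJ7 were 8 of the 39 (20.5%), against 12.4% of all genes and 13.7% of those averaging 10 FPKM or more. At least 2-fold lower was 1 (2.56%), against 9.84% and 6.82%, and the median difference was 0.03. Of the 8, 3 came from the 4 genes that exchange electrons, all 4 of which were higher. This list, too, was chosen with earlier results of these data known. *SFA1*, for the glutathione-dependent formaldehyde dehydrogenase that also acts on long-chain alcohols, had 217 FPKM in BY4741 and 1285 in YHJ7, 5.93-fold higher in YHJ7 (95% interval 5.68 to 6.19). *CYB2*, for the lactate dehydrogenase that passes electrons to cytochrome c, had 104 FPKM in BY4741 and 403 in YHJ7, 3.89-fold higher in YHJ7 (95% interval 3.69 to 4.09). *TKL1*, for the transketolase of the pentose phosphate pathway, had 58.4 FPKM in BY4741 and 201 in YHJ7, 3.45-fold higher in YHJ7 (95% interval 3.23 to 3.68). *CYC7* and *CYC1*, for both forms of cytochrome c, the electron donor of Ccp1, had 65.9 FPKM in BY4741 and 208 in YHJ7 and 655 FPKM in BY4741 and 1348 in YHJ7, respectively. *BPT1*, for a vacuolar transporter of glutathione conjugates, had 34.5 FPKM in BY4741 and 109 in YHJ7, 3.15-fold higher in YHJ7 (95% interval 2.99 to 3.33). *TEF4* and *MSN4* were the remaining 2 of the 8. With equal-total scaling *CYC1* and *TEF4* were under 2-fold and 6 remained past it. The share of all genes past 2-fold under that scaling was not computed. *MSN4*, whose product drives the general stress response, had 31.5 FPKM in BY4741 and 87.6 in YHJ7. This is a transcript level, and the activity of Msn4 was not measured. *OYE3*, for an NADPH-dependent oxidoreductase, was the only gene of this list at least 2-fold lower, at 98.8 FPKM in BY4741 and 29.2 in YHJ7, 3.39-fold lower in YHJ7 (95% interval 2.95 to 3.90). The genes of the main NADPH source, *ZWF1*, *GND1* and *GND2*, had differences of -0.03, 0.48 and 0.09. *GND2* was the more abundant *GND* gene, at 388 FPKM in BY4741 and 413 in YHJ7, against 49.3 and 69.0 for *GND1*. Of the 10 NADPH supply genes in the list, 5 were higher and 5 lower. Their summed FPKM was 3882 in BY4741 and 3254 in YHJ7, and the most abundant of them, *IDP2* and *ALD6*, were both lower in YHJ7. Because each library is a single pool, the strain and the state of its cultures at harvest cannot be told apart for any of these genes.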

How the data were processed

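Polyadenylated RNA of 2 strains was sequenced as 1 library each, pooled by the authors from 2 biological replicates. Per the labels, reads were mapped with TopHat2 2.0.4 to sacCer3 and levels estimated with Cufflinks 2.0.2. The authors deposited FPKM values and estimated counts per gene. The estimated counts carry a factor per library, with low values on multiples of 0.797 in BY4741 and 1.25 in YHJ7, which were taken as the worth of 1 fragment. Of the values above 0 and below 40, 49.5% and 51.4% were whole multiples within 0.02, so whole reads were not recovered and no count model was fitted. These steps were the largest within 0.1 of the highest share. The row that names no gene, 0.806% and 0.309% of the counts, was left out. The deposited table of comparisons also holds the authors' fold changes, test statistics, p-values and q-values, which were not used, and FPKM per locus, which served as an alternative.

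Differences are log2(FPKM + 1) of YHJ7 minus BY4741 on a scale where the added 1 shrinks differences of weakly expressed genes. The ratio is of FPKM. Intervals are exact conditional binomial for ratios between strains and log-normal for ratios within a strain. The calculation was tested on simulated data with known folds. The members and lists were chosen with earlier results of these data known. Named are all members, related genes at least 2-fold different (up to 5 in each direction with values), neighbours of *GTO1* and genes that check the labels. *CYC1*, *MSN4*, *TEF4*, *ZWF1*, *GND1*, *GND2*, *ECM4*, *GTT3*, *IDP2* and *ALD6* were added after their values were seen. All 40 members matched the RefSeq R64 annotation and lay inside their deposited locus. Promoter windows were read from that genome, and protein identity is over aligned residues (BLOSUM62). Alternatives covered the pseudocount, scaling, filter, fold threshold, source of the FPKM values, close paralogues and the worth of 1 fragment. Python 3.11.15, NumPy 2.4.6, pandas 2.3.3, SciPy 1.17.1, Biopython 1.88 and matplotlib 3.10.9 were used.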

Additional observations from a re-analysis of the deposited data

How the results depend on the processing

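No paired analysis was possible because there is a single library per strain, which also leaves no replicate to omit. With 2 members at least 2-fold higher and 8 lower as reported, a pseudocount of 10 gave 1 and 4, a 4-fold threshold 1 and 0, and a 1.5-fold threshold 3 and 16. Equal-total scaling gave 1 higher and 11 lower and moved the median difference of the members from -0.25 to -0.46. Centring on the median of genes averaging 10 FPKM or more, and the FPKM of the authors' table of comparisons, each gave 1 higher and 9 lower. In all of them *DOT5* was the gene lost above, except at 1.5-fold, and the pseudocount of 10 also lost *GPX2*, *GRX3*, *GRX4* and *GTT2*. Shares of all genes were computed only at 2-fold and 4-fold on the reported values, so the other counts have none beside them. Equal-total scaling moved the median of all genes to -0.19, so its higher count of lower members is no trait of the set. *CTT1*, *GTO1*, *MXR1*, *SRX1* and *TRR2* were past 2-fold under every alternative to the pseudocount, scaling and source of values. Of the related genes, 8 higher became 1 at 4-fold, and 1 lower became 0 at 4-fold, 5 at 1.5-fold and 2 with equal-total scaling, which also left 6 higher (*CYC1* and *TEF4* lost). Centring left 7 higher (*CYC1* lost). For 57 genes (the members, 11 of the related genes named, and the 6 neighbours of *GTO1*), 340 alternative values were computed, and 262 stayed within counting error of the reported value. *GND2*, *ECM4*, *GTT3*, *IDP2* and *ALD6* were not among the 57. The filter at an average of 10 FPKM leaves the value of a gene that passes it unchanged. Its values are therefore among the 262 by construction and say nothing about stability. Of the 24 genes past 2-fold, YGR151C alone changed direction, from -1.22 to 1.30 in the authors' table of comparisons, where it is joined with *RSR1*. *GLR1* moved there from 0.04 to 0.65. There, 7 members share a locus with another gene, so their values there are not of 1 gene. Adding *CTA1* to the mitochondrial genes, chosen after seeing the data, moved their median from -0.13 to 0.00196. The smallest step that could be 1 fragment would count more fragments and narrow the intervals, whose arms on either side had a median of 0.112 on the log2 scale over the members and would have 0.0524. The spread between cultures was not measured, so a difference of any size could not be set against it.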
